A study of Mus musculus with 12 samples.

Results

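The genes described here encode the subunits of the proteasome, the assembly chaperones of its regulatory base and its activators. They were chosen by symbol: every protein-coding gene named Psma, Psmb, Psmc, Psmd or Psme with a number, leaving out Psmb8, Psmb9 and Psmb10, which gave 40 of the 46078 genes in the count table. Their RNA was measured in tumours grown from 4T1 cells, a metastatic mammary carcinoma line of BALB/c mice, labelled WT and carrying firefly luciferase. In every group 300000 cells were injected into mammary fat pad number 4 of BALB/c mice, treatment began on day 14, and tumours were taken on day 28. There were 3 libraries a group, numbered as biological replicates. Vehicle mice received neither drug. The MBQ-167 group received 100 mg/kg of MBQ-167, which inhibits the GTPases Rac and Cdc42, 5 times a week for 2 weeks. The paclitaxel group received 5 mg/kg of this microtubule stabiliser 1 time a week, and the combination group received both drugs. The labels do not say that each library is a separate mouse, and p-values then measure only how these libraries vary, which may be technical. Cells were injected on 2 occasions that the labels do not assign to libraries, so that the effects of occasion and of treatment cannot be told apart.

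The proteasome is the protease that degrades most ubiquitin-tagged proteins of the cytosol and nucleus. Its 20S core is a stack of rings, with outer rings of alpha subunits (Psma genes) that gate the chamber and inner rings of beta subunits (Psmb genes), 3 of which carry the cutting sites. The 19S cap has a base of unfolding ATPases (Psmc genes) and scaffold or ubiquitin-receptor subunits, and a lid that holds the deubiquitinase Psmd14. Tumour cells with a high load of unfolded proteins are known to depend on it, and the transcription factor NRF1, encoded by Nfe2l1, raises most subunit genes together when proteasome activity falls short. Interferon brings in the immunoproteasome, in which Psmb8, Psmb9 and Psmb10 replace the catalytic subunits Psmb5, Psmb6 and Psmb7.

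Promoter sequences are shown for the 3 genes that passed a test against vehicle, with matches to control elements marked. They come from RefSeq's table for GRCm38.p6, which matched 33 of the 40 genes, and hold 250 bases before the start and the first 25 bases transcribed, on the gene's strand. Capitals mark matches, on either strand, to the CCAAT box (CCAAT, reverse ATTGG) or to the core of the antioxidant response element bound by NRF1 and NRF2 (TGACNNNGC, reverse GCNNNGTCA); the searched motifs do not overlap each other in these sequences. Psmc1 lies at chr12:100109952-100110226 (+), Psmd4 at chr3:95042590-95042864 (-) and Psme4 at chr11:30771525-30771799 (+).
Psmc1: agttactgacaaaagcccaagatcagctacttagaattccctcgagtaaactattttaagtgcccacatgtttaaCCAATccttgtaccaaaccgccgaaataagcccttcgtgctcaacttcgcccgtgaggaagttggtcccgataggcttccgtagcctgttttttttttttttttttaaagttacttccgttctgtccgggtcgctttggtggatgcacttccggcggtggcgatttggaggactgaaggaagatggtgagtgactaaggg
Psmd4: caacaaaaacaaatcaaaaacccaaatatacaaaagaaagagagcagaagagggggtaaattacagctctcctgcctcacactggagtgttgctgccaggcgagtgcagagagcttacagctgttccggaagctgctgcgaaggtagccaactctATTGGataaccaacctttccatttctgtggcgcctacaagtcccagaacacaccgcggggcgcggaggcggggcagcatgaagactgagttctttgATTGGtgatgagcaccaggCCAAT
Psme4: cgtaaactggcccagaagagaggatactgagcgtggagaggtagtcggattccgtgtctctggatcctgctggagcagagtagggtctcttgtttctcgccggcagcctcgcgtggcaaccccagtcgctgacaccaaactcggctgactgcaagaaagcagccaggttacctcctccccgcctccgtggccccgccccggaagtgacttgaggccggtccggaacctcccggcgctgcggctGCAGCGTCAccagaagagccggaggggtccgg
Psmc1 held 1 CCAAT match and Psmd4 held 3, while Psme4 held 1 match to the response element core and none to CCAAT. Over the full 300-base windows, the response element core was found in 6 of the 33 genes with a promoter (18.18%) and in 12.39% of all 32851 promoters. CCAAT was found in 13 of the 33 (39.39%) and in 37.41% of all promoters.

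Response element cores stood close to the start of both of the catalytic genes that held one. The stretches below surround the match, in capitals, at chr14:54618026-54618050 (-) for Psmb5 and chr11:70525340-70525364 (+) for Psmb6, again from RefSeq on GRCm38.p6.
Psmb5: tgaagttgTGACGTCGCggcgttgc
Psmb6: aaagagagTGACGGAGCgctttacg
The match began 47 bases before the start in Psmb5 and 9 bases before it in Psmb6. These are matches of letters, and no binding was measured.

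Of the 40 genes, 38 had enough counts to be tested. Psma8, the testis form of an alpha subunit, had 0 to 10 counts a library, and Psmb11, the thymus form of a catalytic subunit, had 2 counts in 1 library and none in the others. Total counts ran from 11540557 to 17001562 per library, and 52.67% to 71.54% of them fell in protein-coding genes, while 17.11% to 37.54% fell on 3 features of a ribosomal RNA locus. Levels are given as CPM, which are counts scaled to a common library size after TMM normalisation. Vehicle library 1 stood apart for these genes: it was the highest of the 12 libraries in 27 of the 38, against 13% of all genes tested. Calls of proteasome genes against vehicle, their summed level and their median over the 38 are therefore given with and without it. Other fold changes and medians against vehicle include it unless stated, and may change without it. In bulk tumours, fewer cells with high proteasome RNA and less RNA per cell cannot be told apart.

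Nearly all subunit genes of the tumours were abundant. In mean level the lowest of the 38 stood at the percentile 55.51 of all tested genes and the median one at 85.03. Levels between genes are compared per kilobase (kb) of principal transcript, in vehicle, as CPM per kb. In the 20S core, Psmb4 was highest at 134 ± 22.0 (SD, n = 3) and Psma3 lowest at 14.9 ± 2.16, a ratio of 8.97. The place of Psma3 is uncertain, since near-identical copies drew counts of their own, and with these added its level was 27.5 ± 2.13, above Psmb5. Psma7 at 123 ± 18.9 (SD, n = 3), Psmb6 at 101 ± 19 and Psma6 at 93.8 ± 12.7 came next below Psmb4, and the mean ± SD ranges of neighbours in this order overlapped. Psmb5, the chymotrypsin-like catalytic subunit, stood at 18.9 ± 2.14 CPM per kb, although each core holds equal numbers of all these subunits. Psma2 at 17.1 ± 1.65 and Psma5 at 18.8 ± 2.35 were about as low, and Psma5 with its near-identical copies added was 43.7 ± 10.9. A copy of Psmb5 at 98.87% identity over 796 bp was absent from the count table, so the level of Psmb5 is uncertain too. The 19S base and lid genes were closer together, from Psmd13, a lid scaffold, at 22.6 ± 3.51 to Psmd4, a ubiquitin receptor, at 59.5 ± 7.27, a ratio of 2.63. The assembly chaperones were lowest, with Psmd9 at 6.09 ± 0.246, Psmd5 at 10.1 ± 1.59 and Psmd10 at 12.8 ± 0.315 CPM per kb. Among the activators, Psme1, an interferon-inducible subunit of PA28, reached 94.96 ± 17.1 and Psme4, the single-chain activator PA200, 15.8 ± 0.975.

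**Figure D1:**
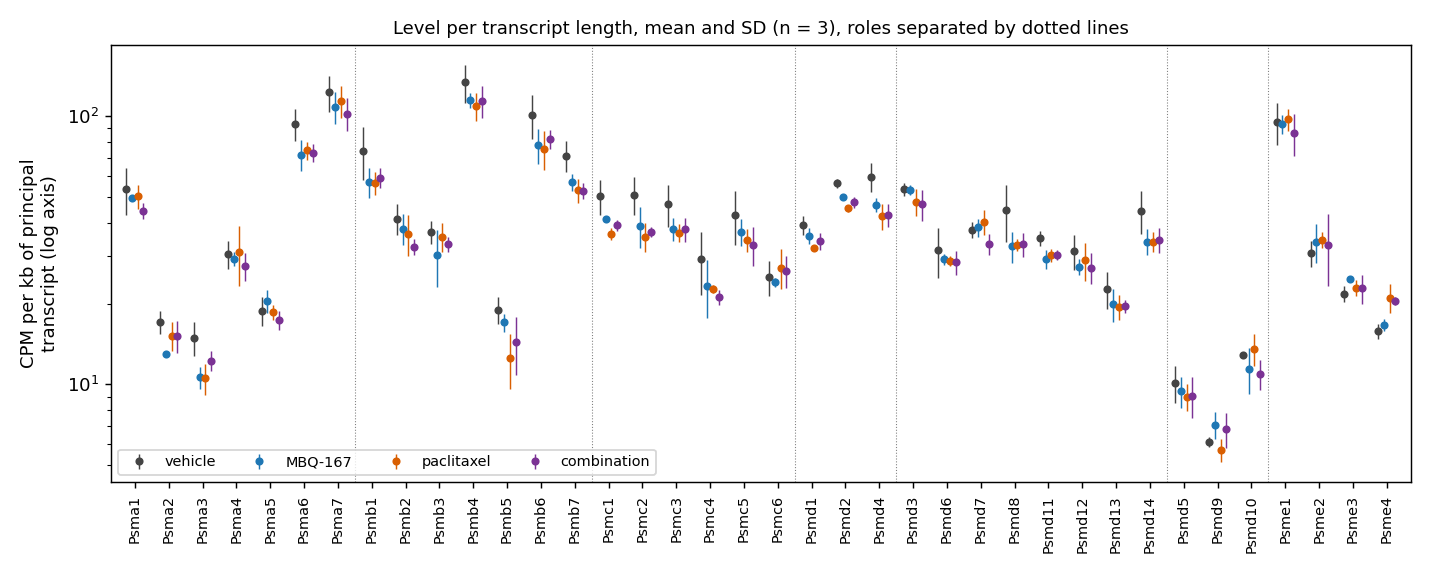
Mean level of the 38 tested genes in CPM per kb of principal transcript (log axis), with SD bars over 3 libraries, for the 4 groups, ordered by role. Core genes spread from 14.9 (Psma3, whose counting is uncertain) to 134 (Psmb4) in vehicle, while the vehicle mean stands above the 3 drug means for most ring, base and lid genes.

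Ring, base and lid genes had lower TMM-scaled mean levels in each drug group than in vehicle, by a margin that shrank under another scaling and without vehicle 1. Of the 31 tested, 29 had a log2 fold change below 0 with MBQ-167, 28 with paclitaxel and 30 with the combination, with medians of -0.22, -0.30 and -0.27. Over all 18252 genes tested the median was 0.00 in each comparison, and 49.9%, 50.2% and 49.9% of the fold changes were below 0. The 3 comparisons share the vehicle libraries, so they are not independent of each other. The summed level of the 31 genes was 2586, 2238 and 2041 CPM in vehicle libraries 1 to 3, and 2067, 1832 and 1935 CPM in the MBQ-167 libraries. It was 1894, 1758 and 2036 CPM with paclitaxel and 1871, 1999 and 1799 CPM with the combination. Vehicle 3 lay below MBQ-167 library 1 and only just above paclitaxel library 3, so the groups overlapped or nearly did. The group means were 15.01%, 17.1% and 17.4% below vehicle, and 9.09%, 11.4% and 11.7% below the mean of vehicle 2 and 3 alone. Taken instead as a share of protein-coding counts, a scaling chosen after seeing the data, the 31 genes made up 0.406%, 0.359% and 0.314% in vehicle libraries 1 to 3, and 0.311% to 0.343% in the drug libraries. Vehicle 3 lay below 6 of the 9 drug libraries on that scale. The group means were then 8.70%, 9.40% and 10.2% below vehicle, and 2.48%, 3.23% and 4.12% below the mean of vehicle 2 and 3. That scaling moved the median log2 difference of all tested genes to 0.12, 0.14 and 0.13, where the medians of the 31 were -0.10, -0.16 and -0.14, with 24, 22 and 29 of 31 below 0. Against vehicle 2 and 3 alone it left 19, 16 and 24 of 31 below 0, with medians of -0.01, -0.05 and -0.05.

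**Figure D2:**
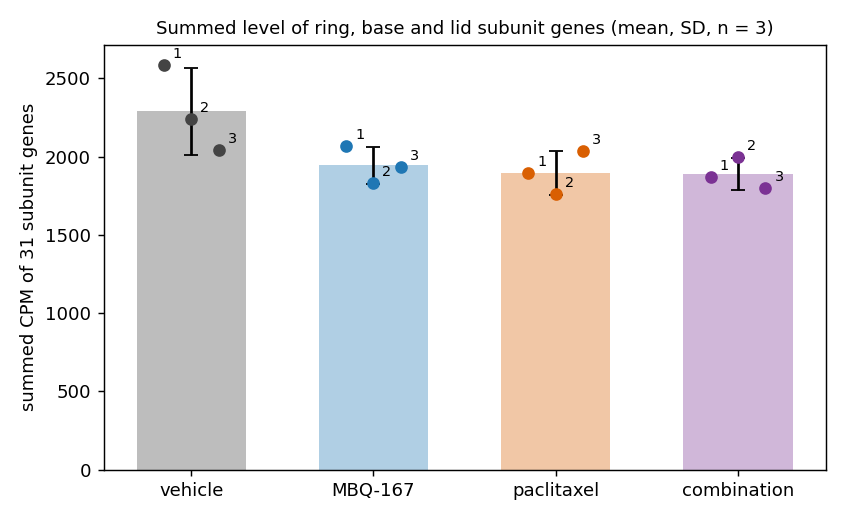
Summed CPM of the 31 tested ring, base and lid genes in each library (points, numbered by library), with group mean (bar) and SD. Vehicle library 1 at 2586 CPM is the highest point, and vehicle library 3 at 2041 CPM lies among the highest drug libraries.

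Few single genes passed the test, which was an adjusted p under 0.05 in edgeR's quasi-likelihood model over all genes. With paclitaxel 3 of the 38 passed, Psmc1 and Psmd4 lower and Psme4 higher, where 5.66% of all genes passed (2.49% lower and 3.17% higher). With MBQ-167 none passed, where 0.0931% of all genes did, and with the combination none passed, where 1.84% did. At an unadjusted p under 0.05, 13 genes were lower and 0 higher with MBQ-167, where 7.05% and 5.82% of all genes were. With paclitaxel 14 were lower and 1 higher (11.2% and 11.4% of all genes), and with the combination 13 and 1 (8.81% and 9.54%). DESeq2 called 0, 7 and 3 of the 38 in these comparisons, and 311, 1759 and 941 of all genes. Limma voom called 0, 3 and 0 of the 38, and 15, 987 and 243 of all genes. All 3 vehicle libraries lay above all 9 drug libraries in 7 of the 38 genes, namely Psma6, Psmb7, Psmc1, Psmd2, Psmd4, Psmd8 and Psmd11, against 3.95% of all genes. The opposite arrangement was found in 0 of the 38 and in 3.42% of all genes. Without vehicle 1, none of the 38 passed with paclitaxel, and the median over the 38 moved from -0.20 to -0.12. With MBQ-167 that median moved from -0.18 to -0.11 and with the combination from -0.23 to -0.15.

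**Figure D3:**
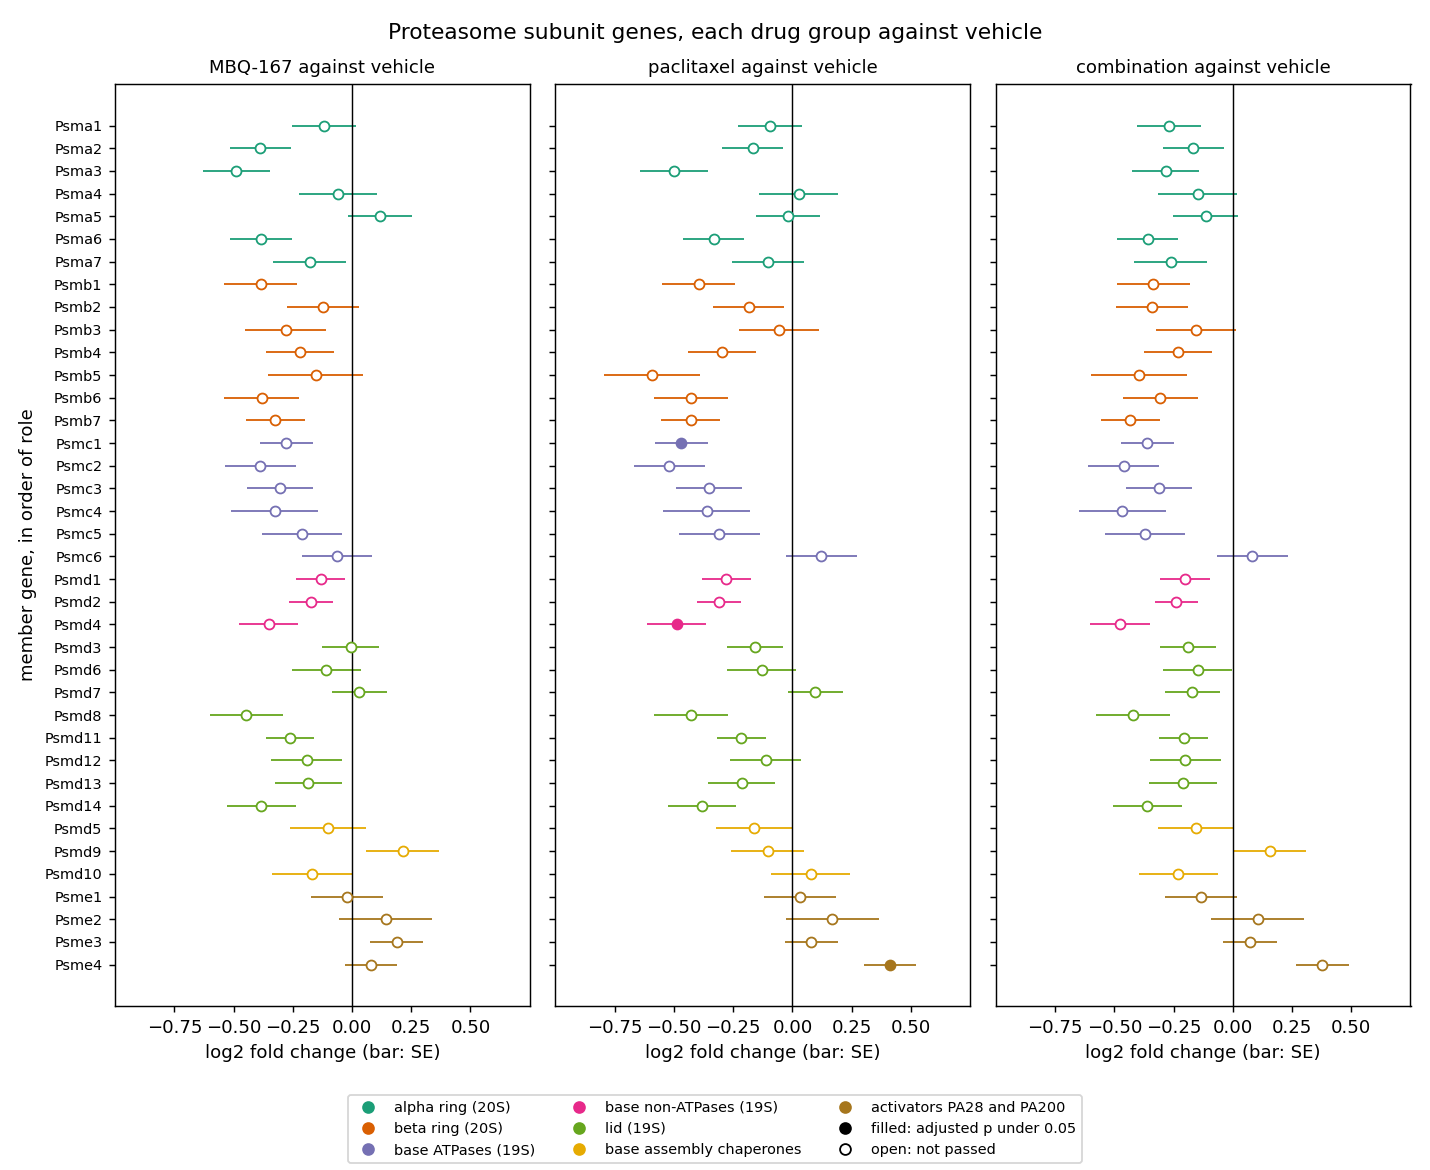
Log2 fold change (x axis) of each of the 38 tested genes against vehicle in the 3 drug groups, with SE bars and colours by role; filled points passed the test. Most ring, base and lid genes lie left of 0, the activators lie around or right of 0, and the filled points are Psmc1, Psmd4 and Psme4 with paclitaxel.

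The base ATPases unfold substrates and open the core. Psmc1 (ENSMUSG00000021178, chr12:100110154-100123405 on GRCm38), 1 of these 6, was 93.3, 74.96 and 71.5 CPM in vehicle, 65.5, 66.1 and 66.4 with MBQ-167, 59.7, 54.3 and 59.1 with paclitaxel, and 60.2, 65.7 and 60.7 with the combination. Every vehicle library was above every drug library, vehicle 1 most of all. Its fold change with paclitaxel was -0.47 ± 0.11 (log2, SE, n = 3 per group; edgeR adjusted p = 0.029). It was -0.28 ± 0.11 with MBQ-167 (edgeR adjusted p = 0.32) and -0.36 ± 0.11 with the combination (edgeR adjusted p = 0.11), neither of which passed. Psmc1 with paclitaxel did not pass without vehicle 1 (-0.35, adjusted p = 0.11) or without paclitaxel 1, 2 or 3 (-0.50, -0.43 and -0.49). Over the 6 ATPase genes the medians were -0.29 (MBQ-167), -0.36 (paclitaxel) and -0.37 (combination). Psmc6 had fold changes of -0.06, 0.12 and 0.08, the other 5 were below 0 in every drug group, and of the 6 only Psmc1 passed.

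Of the non-ATPase base genes, Psmd4 (ENSMUSG00000005625, chr3:95032694-95042614) encodes a receptor for ubiquitin chains. It was 90.01, 76.5 and 71.2 CPM in vehicle, 57.9, 63.3 and 65.2 with MBQ-167, 55.7, 50.4 and 63.3 with paclitaxel, and 60.9, 59.3 and 50.8 with the combination. No drug library reached the lowest vehicle library. The fold change was -0.49 ± 0.13 with paclitaxel (edgeR adjusted p = 0.036), -0.48 ± 0.13 with the combination (0.064) and -0.35 ± 0.13 with MBQ-167 (0.25), and only the first passed. Psmd4 with paclitaxel did not pass without vehicle 1 (-0.39, adjusted p = 0.14), vehicle 2 (-0.52), paclitaxel 1 (-0.48) or paclitaxel 2 (-0.42). Psmd1 and Psmd2, the large scaffold subunits, had fold changes of -0.28 and -0.31 with paclitaxel, and neither passed.

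In the beta rings, Psmb7, the trypsin-like catalytic subunit, had the smallest p of the 7 genes tested. It was 89.9, 87.7 and 70.3 CPM in vehicle, 68.1, 60.4 and 69.5 with MBQ-167, 64.3, 53.9 and 65.8 with paclitaxel, and 61.4, 65.4 and 56.8 with the combination. All drug libraries lay below vehicle, although MBQ-167 library 3 nearly met vehicle 3. The fold change with the combination was -0.43 ± 0.12 (edgeR adjusted p = 0.089) and did not pass; reads of the opposite-strand gene Nek6 overlap 405 bp of its exons, and whether strand was used in counting is not given. Psmb5 was 17.8, 18.5 and 14.9 CPM in vehicle, 16.5, 14.2 and 15.2 with MBQ-167, 12, 8.37 and 13.4 with paclitaxel, and 10.1, 16.3 and 12.2 with the combination. The paclitaxel libraries were all below vehicle and the other drug libraries overlapped it, with a fold change of -0.59 ± 0.20 with paclitaxel (edgeR adjusted p = 0.099), the lowest among the 38 in that comparison. Every one of the 7 beta genes had a fold change below 0 in all 3 drug groups, with medians of -0.28, -0.40 and -0.34.

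Alpha ring genes gave medians of -0.18, -0.10 and -0.26. Psma3, an outer-ring subunit of the core, was 48.5, 36.2 and 42.5 CPM in vehicle, 32.5, 31.2 and 27.0 with MBQ-167, 33.2, 31.3 and 25.5 with paclitaxel, and 38.3, 33.6 and 32.7 with the combination. The single-drug libraries were all below vehicle, while combination library 1 was above vehicle 2. Its fold change with paclitaxel was -0.50 ± 0.14 (edgeR adjusted p = 0.055) and missed the threshold. Counting of Psma3 is uncertain, since 4 near-identical copies together held 87.97% as many counts, and Gm13835 matched it at 100% identity over 665 bp.

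Lid genes gave medians of -0.19, -0.19 and -0.20. Psmd8 had the smallest p among them, with 87.5, 59.5 and 59.0 CPM in vehicle, 57.9, 44.8 and 48.6 with MBQ-167, 51.2, 48.3 and 53.5 with paclitaxel, and 47.2, 57.1 and 49.4 with the combination. Vehicle 1 was far above the rest, and vehicle 2 and 3 were close to the highest drug libraries. The fold change with MBQ-167 was -0.45 ± 0.16 (edgeR adjusted p = 0.25) and did not pass. Psmd14, the deubiquitinase of the lid, had fold changes of -0.38, -0.38 and -0.36, and Psmd7, its inactive partner, 0.03, 0.10 and -0.17, none of which passed.

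Chaperones of base assembly, Psmd5, Psmd9 and Psmd10, are not part of the finished particle. Psmd9 was 16.6, 15.3 and 15.6 CPM in vehicle, 20.5, 16.2 and 18.4 with MBQ-167, 13.3, 14.6 and 16.3 with paclitaxel, and 18.96, 19.4 and 14.6 with the combination. Its groups overlapped, with a fold change of 0.21 ± 0.15 with MBQ-167 (edgeR adjusted p = 0.59). The medians over the 3 genes were -0.10, -0.10 and -0.15, and none passed.

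Activators bind the core in place of the 19S cap, and their medians were 0.11, 0.12 and 0.09. Psme4 (ENSMUSG00000040850, chr11:30771726-30880361) was 96.2, 101.9 and 108.9 CPM in vehicle, 103.6, 114.9 and 106.2 with MBQ-167, 142.8, 148.8 and 117.0 with paclitaxel, and 135.6, 128.1 and 135.3 with the combination. Every library that received paclitaxel was above every library that did not. The fold change was 0.41 ± 0.11 with paclitaxel (edgeR adjusted p = 0.044), 0.38 ± 0.11 with the combination (0.093) and 0.08 ± 0.11 with MBQ-167 (0.82), and only the first passed. Psme4 with paclitaxel did not pass without vehicle 1 (0.36, adjusted p = 0.15), vehicle 2 (0.41), paclitaxel 1 (0.37) or paclitaxel 2 (0.34). Its transcript GC content was 38.44%, the lowest of the 38 and lower than in all but 2.475% of tested genes. After a per-library GC correction the fold change of Psme4 turned to -0.24 (adjusted p = 0.25), so its direction depends on that choice, while Psmc1 (-0.45, adjusted p = 0.064) and Psmd4 (-0.39, adjusted p = 0.13) kept theirs without passing. The PA28 genes Psme1, Psme2 and Psme3 had fold changes of 0.03, 0.17 and 0.08 with paclitaxel, and none passed; Psme2 has a copy, Psme2b, at 99.37% identity with 131.14% as many counts.

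**Figure D4:**
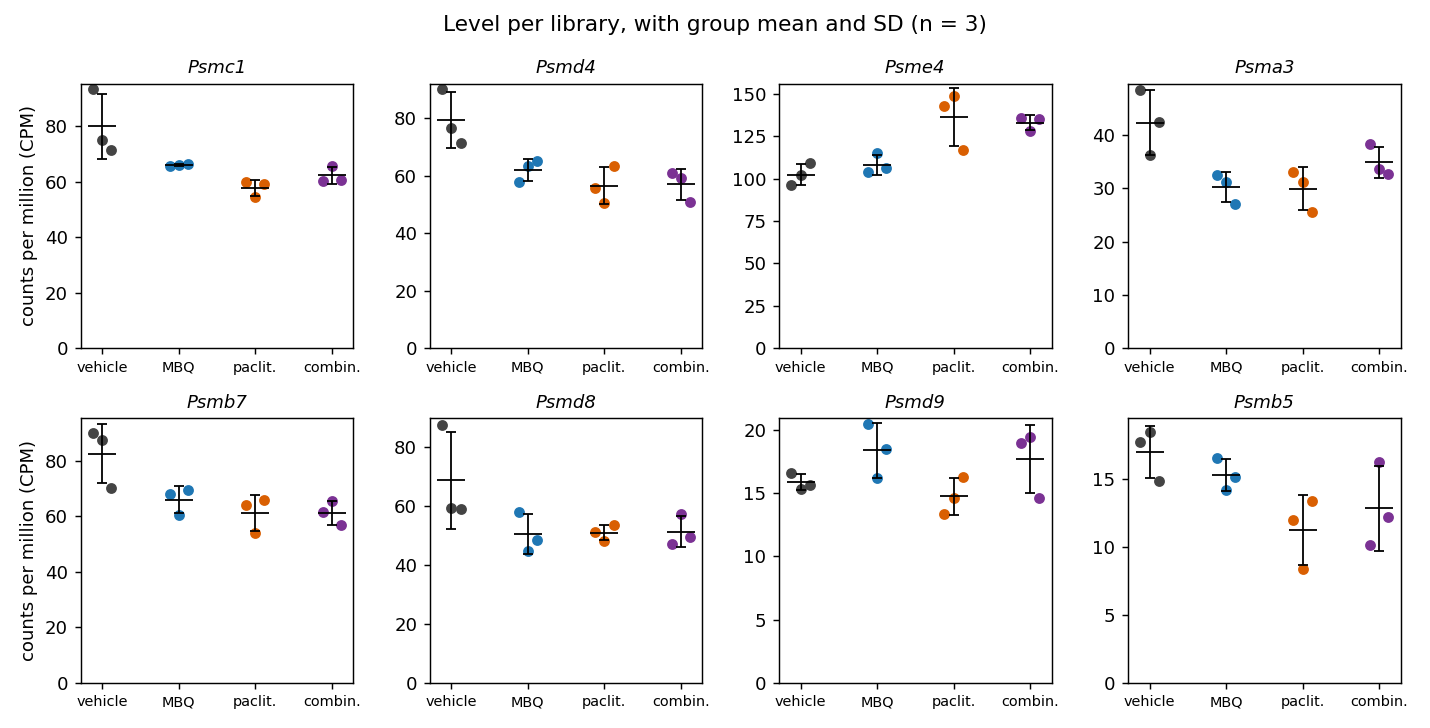
CPM per library (points) of 8 genes in the 4 groups, with group mean and SD (n = 3) on axes that start at 0. Vehicle points stand highest for Psmc1, Psmd4 and Psmb7, and for Psme4 the paclitaxel and combination points, from 117.0 to 148.8 CPM, stand above the rest.

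Comparisons among the drug groups and the test of whether the effects add were without a call. None of the 38 passed for the combination against MBQ-167, the combination against paclitaxel or paclitaxel against MBQ-167, where 0% of all genes passed in each, with medians of -0.06, -0.01 and -0.03. DESeq2 and limma voom also called 0 of the 38 in each. At an unadjusted p under 0.05 there was 1 higher gene in the first (Psme4, 0.30; 5.15% of all genes either way), 1 lower in the second (Psmd7, -0.27; 2.36%), and 1 each way in the third (Psme4, 0.33, and Psmb5, -0.44; 6.88%). The interaction, combination minus both single drugs plus vehicle, was above 0 in 27 of the 38 with a median of 0.18, where 50% of all genes were below 0 and their median was 0.00. The median over the 38 was 0.05 without vehicle 1, 0.08 without paclitaxel 2 and 0.09 without MBQ-167 2. None passed, where 0.0603% of all genes did, and DESeq2 and limma voom called 0. At an unadjusted p under 0.05 it was above 0 for Psma3 (0.70), Psmb6 (0.50) and Psmc1 (0.38), where 9.83% of all genes passed that threshold either way. Counting of Psma3 is uncertain, and its near-identical copy Gm13835 had an interaction of 0.25 (edgeR unadjusted p = 0.32).

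The immunoproteasome subunits had fold changes of -0.01 to 0.52 against vehicle. Psmb9, which takes the place of Psmb6, was 47.9, 38.0 and 29.6 CPM in vehicle, 50.8, 57.8 and 46.0 with MBQ-167, 48.1, 64.1 and 53.6 with paclitaxel, and 72.1, 51.5 and 29.5 with the combination. All paclitaxel libraries were above vehicle, narrowly, and combination library 3 was just below the lowest vehicle library. Psmb10 was 67.3 ± 24.3 CPM in vehicle (SD, n = 3), 82.3 ± 15.3 with MBQ-167, 93.9 ± 19.8 with paclitaxel and 85.1 ± 31.1 with the combination. Psmb8 was 143 ± 30.8 (SD, n = 3), 142 ± 29.0, 152 ± 11.4 and 151 ± 50.2 CPM in the same order. None of the 3 genes passed against vehicle, the smallest edgeR adjusted p being 0.24 for Psmb9 with paclitaxel; 0 had an unadjusted p under 0.05, and DESeq2 and limma voom called 0.

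Ratios of immuno to constitutive subunit, each per kb and on the log2 scale, were compared between the 9 drug libraries and the 3 vehicle libraries by exact permutation (two-sided, 220 splits), adjusted over the 3 ratios. Psmb9 over Psmb6 was -1.78, -1.79 and -1.96 in vehicle, -1.28, -0.75 and -1.05 with MBQ-167, -0.90, -0.56 and -1.17 with paclitaxel, and -0.67, -1.18 and -1.77 with the combination. All 9 drug libraries were above vehicle, combination library 3 narrowly. The difference was 0.80 (exact permutation p = 0.0045, the smallest these splits can give; adjusted p = 0.014), and it ran from 0.74 to 0.90 when each library was left out. Without vehicle 2 (0.83) or vehicle 3 (0.75) the exact permutation p was 0.018, the smallest that those splits can give, and the adjusted p of 0.055 missed the threshold. For Psmb10 over Psmb7 the difference was 0.80 with 7 of 9 drug libraries above vehicle (exact permutation p = 0.018, adjusted p = 0.027). That call was lost without vehicle 2 (0.83, exact permutation p = 0.073) and without vehicle 3 (0.59, exact permutation p = 0.091; adjusted p = 0.11 and 0.14). It was also lost without MBQ-167 1, MBQ-167 2, paclitaxel 3 or combination 2 (0.78 to 0.80, exact permutation p = 0.036 and adjusted p = 0.055 in each). Psmb8 over Psmb5 differed by 0.45, with 6 of 9 above vehicle (exact permutation p = 0.13, adjusted p = 0.13). Single drug groups of 3 against 3 cannot give an exact p under 0.1, and none did. Psmb9 shares 212 identical bp with the neighbouring antigen transporter gene Tap1, and its counting is uncertain to that extent.

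**Figure D5:**
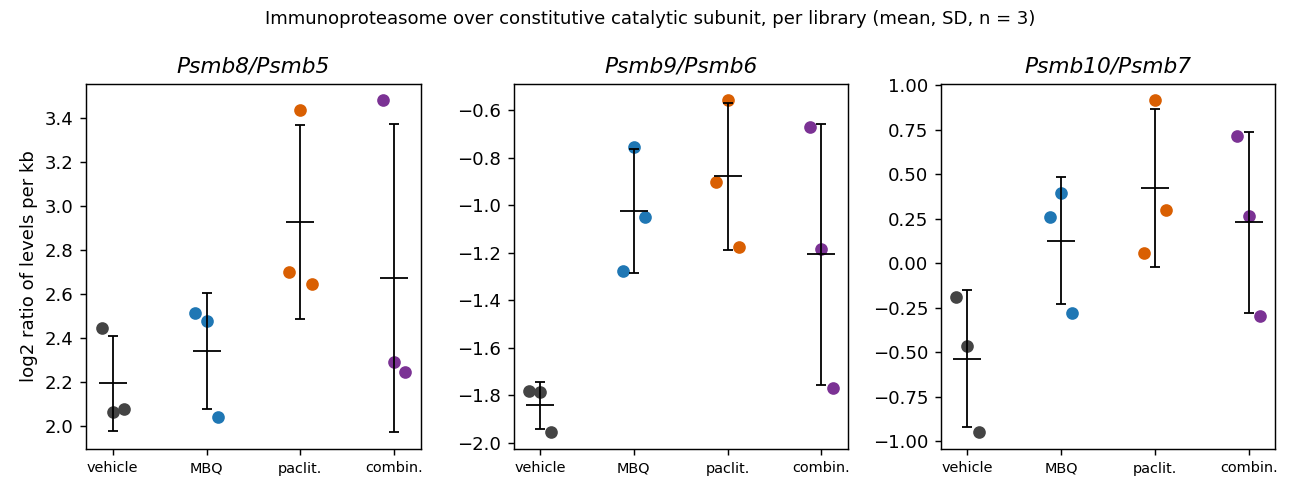
Log2 ratio of levels per kb of each immunoproteasome subunit to the constitutive subunit it replaces, per library (points) with group mean and SD (n = 3); each panel has its own y axis. For Psmb9 over Psmb6 the vehicle points lie between -1.96 and -1.78 and the drug points between -1.77 and -0.56.

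Some marker genes of other cells and responses also differed between the drug groups and vehicle. The summed level of 22 interferon response genes was 513.1 to 651.9 CPM in vehicle, 795.4 to 971.9 with MBQ-167, 950.5 to 1336 with paclitaxel and 643.0 to 1250 with the combination. Of these 22, 16 passed as higher with paclitaxel, 2 with the combination and 0 with MBQ-167. With MBQ-167 11 had an unadjusted p under 0.05, DESeq2 called 5 and limma voom 0. DESeq2 called 17 with paclitaxel and 5 with the combination, and limma voom 16 and 1. Of all genes 3.17%, 1.03% and 0.0164% passed as higher in these comparisons, and 5.82% were higher with MBQ-167 at an unadjusted p under 0.05. No gene of this or the following marker lists was at 0 in all libraries. Epithelial markers of the carcinoma cells were present and 6 of 6 had fold changes below 0 in each drug group, with medians of -0.88, -0.78 and -0.68. Of all genes 49.9%, 50.2% and 49.9% had fold changes below 0. Krt8 passed as lower with paclitaxel, where 2.49% of all genes did, and 0 passed with MBQ-167 or the combination (0.0767% and 0.811%). DESeq2 called 2 of the 6 as lower in each drug group, and limma voom 0, 1 and 0. The epithelial sum was 1891, 951.9 and 2759 CPM in vehicle libraries 1 to 3, 921.4 to 1335 with MBQ-167, 1075 to 1120 with paclitaxel and 918.9 to 1493 with the combination. In vehicle that sum was highest in library 3, and the proteasome sum was highest in library 1. Neutrophil markers summed to 498.1, 379.5 and 1603 CPM in vehicle libraries 1 to 3 and 212.8 to 346.4 over the drug libraries. In vehicle this sum was highest in library 3, where the proteasome sum was lowest of the vehicle libraries. Of 12 neutrophil markers, 10 passed as lower with paclitaxel and 9 with the combination, where DESeq2 called 9 in each and limma voom 6 and 3. With MBQ-167 0 passed, 11 had an unadjusted p under 0.05, DESeq2 called 3 and limma voom 0. Of all genes 2.49%, 0.811% and 0.0767% passed as lower in these comparisons, and 7.05% were lower with MBQ-167 at an unadjusted p under 0.05. T and NK cell markers summed to 5.40 to 15.6 CPM in vehicle and 16.7 to 30.7 over the drug libraries. Of these 8, 0 passed as higher with MBQ-167, 1 with paclitaxel and 1 with the combination (0.0164%, 3.17% and 1.03% of all genes). DESeq2 called 1 as higher in each, and limma voom 0, 1 and 0. In each drug group 1 of the 8 had a fold change below 0. Erythroid markers summed to 256.0 to 264.7 CPM in vehicle and 14.5 to 107.3 over the drug libraries. All 5 had fold changes below 0, and 0, 2 and 3 passed as lower in the same order (0.0767%, 2.49% and 0.811% of all genes). DESeq2 called 1, 3 and 3 as lower, and limma voom 0, 2 and 2. None of 7 macrophage, 6 fibroblast and 4 endothelial markers passed against vehicle in any drug group, 0 had an unadjusted p under 0.05, and DESeq2 and limma voom called 0. Within vehicle, the interferon sum (651.9, 591.3 and 513.1 CPM in libraries 1 to 3) fell in the order of the proteasome sum. The T and NK cell sum (15.6, 13.9 and 5.40 CPM) did so too, and the erythroid sum (264.7, 256.3 and 256.0 CPM) only slightly. The epithelial, neutrophil, macrophage, fibroblast and endothelial sums did not. These orders rest on 3 libraries and were not tested. The part of these marker differences in the lower subunit levels and in the ratios was not tested.

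Genes around the proteasome were taken from fixed lists. Of 15 assembly factors and associated proteins, none passed against vehicle in edgeR in any drug group, with 1 lower at an unadjusted p under 0.05 with MBQ-167 and 1 in each direction with paclitaxel and with the combination; DESeq2 and limma voom called 0. Pomp, the maturation factor of the core, was 66.9 ± 11.5 CPM in vehicle (SD, n = 3), 64.4 ± 7.18 with MBQ-167, 55.8 ± 5.94 with paclitaxel and 54.5 ± 10.4 with the combination. Nfe2l1 was 304 ± 6.67 (SD, n = 3), 292 ± 24.4, 281 ± 30.8 and 280 ± 11.2 CPM in the same order, and Nfe2l2, which encodes NRF2, was 60.8 ± 13.7, 58.1 ± 10.9, 59.2 ± 12.1 and 53.6 ± 4.32. None of these 3 passed. RNA levels of Nfe2l1 say nothing on NRF1 protein, which is known to be set by cleavage and degradation.

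Among 8 genes of transcription and NRF1 processing, Maff, a small Maf partner of NRF1 and NRF2 on response elements, was the one that passed. It was 36.4, 32.0 and 34.9 CPM in vehicle, 22.9, 27.2 and 23.6 with MBQ-167, 24.5, 23.5 and 21.7 with paclitaxel, and 19.3, 23.2 and 21.0 with the combination. All 9 drug libraries were below all vehicle libraries. The fold change was -0.57 ± 0.12 with paclitaxel (edgeR adjusted p = 0.019), -0.70 ± 0.12 with the combination (0.020) and -0.49 ± 0.12 with MBQ-167 (0.14), and the last did not pass. Without vehicle 1 it was -0.53 and -0.67 (adjusted p = 0.067 and 0.064) and did not pass; the same held without paclitaxel 2 (-0.58) or 3 (-0.53), and without any 1 of the combination libraries (-0.77 to -0.64). After the GC correction it was -0.44 with paclitaxel (adjusted p = 0.10) and -0.62 with the combination (adjusted p = 0.065), and neither passed.

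Among ubiquitin genes and shuttle factors, Ubb, a polyubiquitin gene, was 175.3, 133.0 and 114.5 CPM in vehicle and 86.8, 77.8 and 78.7 with paclitaxel. It was 128.7, 93.3 and 89.2 with MBQ-167 and 100.2, 135.7 and 91.2 with the combination. The paclitaxel libraries lay clear below vehicle and the others overlapped it. Ubb fell by 0.80 ± 0.19 on the log2 scale with paclitaxel (edgeR adjusted p = 0.026), and did not pass without vehicle 1 (-0.62, adjusted p = 0.11) or without paclitaxel 1, 2 or 3 (-0.85, -0.77 and -0.78), or after the GC correction (-0.67, adjusted p = 0.083). Rps27a, which encodes a ubiquitin fused to a ribosomal protein and was picked after its values were seen, had a fold change of 0.56 ± 0.19 with paclitaxel (edgeR adjusted p = 0.091) and did not pass.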

How the data were processed

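The deposited values are raw read counts per gene, 1 column per library. Per the submitters' processing notes, HISAT2, HTSeq and DESeq2 were used on GRCm38; their versions, the annotation, the strandedness and how multi-mapping reads were handled are not given in the sources used. Symbols, biotypes, transcripts and GC content came from GENCODE vM21. Genes were kept by filterByExpr (minimum count of 10), which left 18252. The 12 libraries were fitted together in edgeR 4.0.16 (quasi-likelihood, TMM), with p-values adjusted by Benjamini-Hochberg over all genes in each of 7 comparisons and a threshold of 0.05. Alternatives were DESeq2 1.42.0, limma voom 3.58.1, RLE size factors, other filters, only the groups compared, a replicate block, a GC offset, protein-coding genes only and each library left out. Near-identical copies were found with BLAST 2.17.0 at 95% identity or more over 200 bp or more. The genes of each role and the other lists were chosen with earlier results of these data known. Values per library are given for genes that passed and for the smallest p against vehicle in each role, and for Psmb8, Psmb9, Psmb10, Pomp, Nfe2l1 and Nfe2l2; Psmb5 and the genes named by fold change alone were chosen after their values were seen. Replicate numbers were not used to pair the libraries in the main fit. The count over the list of ubiquitin genes and shuttle factors is not reported here.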

Additional observations from a re-analysis of the deposited data

How the results depend on the processing

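In 6 of the 7 comparisons no proteasome gene was called, and 104 of their 107 alternative fits also called 0, which does not show that levels were equal. Of 102 alternative values for single genes that passed (Psmc1, Psmd4, Psme4, Maff and Ubb), 59 passed in the same direction, 41 missed the threshold in it and 2 reversed. With paclitaxel against vehicle, 3 were called; DESeq2 called 7 (of all genes 1759, against 1033), a fit of only the groups compared called 0 (251), and leaving out 1 library gave 0 to 7, with 0 without vehicle 1, paclitaxel 1 or paclitaxel 2 (366, 406 and 230 of all genes) and 7 without vehicle 3 (1139). With the combination against vehicle, 0 were called; DESeq2 called 3 (of all genes 941, against 336), no filter on low counts called 1 (Psmd4; 849), and leaving out 1 library gave 0 to 2, the 2 being without vehicle 3 (416). Psme4 with paclitaxel reversed from 0.41 to -0.24 (adjusted p = 0.25) with the GC correction and to -0.23 (adjusted p = 0.25) with the replicate block and GC correction; the cause was not tested. The GC correction called 4 genes with paclitaxel, all lower (Psma3, Psmb7, Psmc2 and Psmd14), and 345 of all genes, against 1033 in the main fit. The difference in log2 ratio of Psmb10 to Psmb7 ran from 0.59 to 0.97 when each library was left out, and that of Psmb9 to Psmb6 from 0.74 to 0.90; the adjusted call of the first was lost without any 1 of 6 of the 12 libraries, and that of the second without either of 2. Libraries of the same number correlated in their deviations from the group means between -0.17 and 0.25, with 7 of 18 pairs over 0.1. Pairs of different number correlated between -0.19 and 0.23, with 8 of 36 over 0.1. Of the 12 libraries, 5 correlated best with their own number. Whether the numbers pair the libraries cannot be decided from these values, and the main fit left them unpaired. With the replicate block, 4 genes were called with paclitaxel (Psma3, Psmc1, Psmc2 and Psmd4, all lower), where 1092 of all genes were. Psme4 was not called, and 0 were called in the other comparisons. Chosen after seeing the data, adding the counts of near-identical copies to each gene moved no count of calls by over 1.5 times, and merged exon length in place of the principal transcript changed the ratio of the highest to the lowest core gene from 8.97 to 7.45. The number of libraries, 3 a group, limits what could be called.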

Other observations

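Several subunit genes have near-identical copies elsewhere in the genome, mostly processed pseudogenes, that also collected counts. Of the 38 tested genes, 8 had at least 1 copy in the count table at 95% identity or more over at least 200 bp. The copies of Psma5, an alpha ring gene, held 114.5% as many counts as the gene itself, with Gm8394 at 98.63% identity. For Psmd11, a lid gene, the share was 29.77%, for Psma4 28.12%, for Psmb3 15.36%, for Psmd2 9.067% and for Psmc1 6.715%. Gm13835, identical to Psma3 over 665 bp, held 4389 counts over the 12 libraries, where Psma3 held 6135. How the authors' counting divided reads between these loci was not stated in the sources used, so the levels of these genes are uncertain. Genes on the opposite strand overlap exons of several of the 38 genes, and whether strand was used in counting is not given. Among these, Nek6 held 75.26% as many counts as Psmb7, Slc39a13 53.03% as many as Psmc3, and Sirt3 10.56% as many as Psmd13. Emc9 held 11.30% as many as Psme1 but shares only 14 bp of its exons. Gm26745 shares 25.51% of the exon bases of Psmd9 and held 3.793% as many counts.

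Spread between libraries also differed between groups. The coefficient of variation of a gene's CPM over 3 libraries had a median over the 38 genes of 14.0% in vehicle, 8.83% with MBQ-167, 10.6% with paclitaxel and 9.83% with the combination. This difference in spread was not tested.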
